A study of Mus musculus with 6 samples.

Results

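Necroptosis and pyroptosis are forms of lytic cell death that breach the plasma membrane and release inflammatory cell contents. The transcripts described here are 10 mouse genes of that machinery, found in the table by symbol: Zbp1, Ripk1, Ripk3, Mlkl, Casp1, Casp4, Casp8, Casp12, Gsdmd and Gsdme. All 10 symbols were found among the 17030 genes of the deposited expression table. In necroptosis, receptor-interacting kinases assemble through a shared interaction motif, and RIPK3 phosphorylates the pseudokinase MLKL, which then damages the plasma membrane. In pyroptosis, proteases such as the inflammatory caspases cleave gasdermins, whose released fragments form membrane pores. ZBP1, a sensor of left-handed nucleic acid that is induced by interferon in many cell types, can feed into both routes through RIPK3 and caspase-8.

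The cells were SCC7, a tumour line of squamous carcinoma from the mouse that serves in head and neck cancer research, grown in high-glucose medium with serum. One group received radiotherapy (irradiated, n = 3), at 9 Gy per the treatment protocol, and the other had the treatment label none (control, n = 3). That protocol text is attached to the control samples as well, and the treatment label decided the groups. Every sample has day 0 as its time, and how long after irradiation the cells were harvested is not given. RNA depleted of ribosomal RNA was sequenced. Separate cultures are not mentioned for the samples within a group. The p-values therefore measure only the spread between these samples, and that spread may be technical.

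Values are FPKM, fragments scaled by transcript length and by the size of the library, so levels of different genes can be set side by side. The sum of FPKM was 652691 to 663489 in the irradiated libraries and 693961 to 982553 in the controls. The absolute number of reads is unknown. An estimate of relative depth from the steps between the lowest values of short genes gave 0.963 to 1.03 of the mean of the 6 libraries. It used only values within a narrow range set beforehand, which holds it near 1. It therefore cannot show whether depth differed between the libraries. Irradiated libraries were more alike, with a median SD per gene of 0.08 in log2(FPKM + 1), against 0.30 in controls. Control 3 stood apart from controls 1 and 2: among the 11103 genes tested it was the control nearest to the irradiated mean for 7210 (64.9%). Of the 10 genes described here this held for 4, Zbp1, Ripk1, Casp4 and Casp12. As a check of the cell type, the simple-epithelial keratins Krt8 and Krt18 were abundant, at 371 to 393 and 100 to 113 FPKM in irradiated cells, against 487 to 1361 and 212 to 528 FPKM in controls, and Krt18 was called lower (-1.82, limma adjusted p = 0.0261). The squamous and epithelial markers Krt5, Krt14, Krt6a, Epcam, Cdh1 and Trp63 stayed at or below 0.38 FPKM in irradiated cells and 1.1 FPKM in controls. The leukocyte marker Ptprc reached at most 0.03 FPKM in irradiated cells and was listed at 0 in every control, and Adgre1, Csf1r and Itgam were at or below 0.06 FPKM in irradiated cells and 0.05 FPKM in controls. Other leukocyte markers were expressed. Cd14 measured 19.2 to 21.6 FPKM in irradiated cells and 13.5 to 18.7 FPKM in controls (limma adjusted p = 0.18). Cd68 measured 4.01 to 5.63 FPKM in irradiated cells and 2.11 to 4.52 FPKM in controls (limma adjusted p = 0.183). Of the 7 leukocyte markers 3 were tested, and only Lyz2 was called (higher, 1.41, limma adjusted p = 0.00745). Lyz2 lay at 0.30 to 0.78 FPKM in controls and passed the filter only through the irradiated libraries, so nothing is read from its call. The summed level of the 7 markers was 28.5 to 29.3 FPKM in irradiated libraries, against 17.4 to 22.7 FPKM in controls. The 5 fibroblast markers summed to 164 to 188 FPKM in irradiated libraries, against 109 to 198 FPKM in controls. Col1a1 and Dcn were called higher, while Col1a2 (0.05, limma adjusted p = 0.9) and Pdgfra (0.17, limma adjusted p = 0.559) were not called. Dcn lay at 0.94 to 1.28 FPKM in controls and passed the filter only through the irradiated libraries, so nothing is read from its call. Thy1 stayed at or below 0.04 FPKM. The part of either list in the results was not tested.

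Across the machinery, Zbp1 rose steeply in irradiated cells, and no other member but Mlkl passed the test. Mlkl rose moderately, with a call close to the threshold that most alternative settings lost. All 10 members passed the filter, Zbp1 only through the irradiated libraries. Of the 10 members, 2 were called higher and 0 lower by limma (Benjamini-Hochberg adjusted p below 0.05 over 11103 genes), against 9.24% of all tested genes called higher and 2.77% called lower. At an unadjusted p below 0.05, 6 members were higher, where 27.2% of all genes were (38.3% in either direction), and 0 were lower, where 11.1% of all genes were. Every irradiated library lay above every control for 6 members, Zbp1, Ripk1, Mlkl, Casp4, Casp8 and Casp12. This was so for 31.8% of all tested genes, and the reverse order, found for 0 members, for 13.7%. The median log2 fold change of the members was 0.39, against 0.17 for all tested genes. The 1334 calls among all genes (12.0%) split into 1026 higher and 308 lower, and that split depended on scaling. Quantile normalization gave 645 higher and 601 lower calls, and a correction for transcript length and GC content gave 807 and 828. Those settings brought the median of all genes to -0.02 and -0.03, and the members' median to 0.31 and 0.32. As the RNA is from bulk cultures, a change in every cell and a change in the number of cells that express a gene cannot be told apart.

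**Figure D1:**
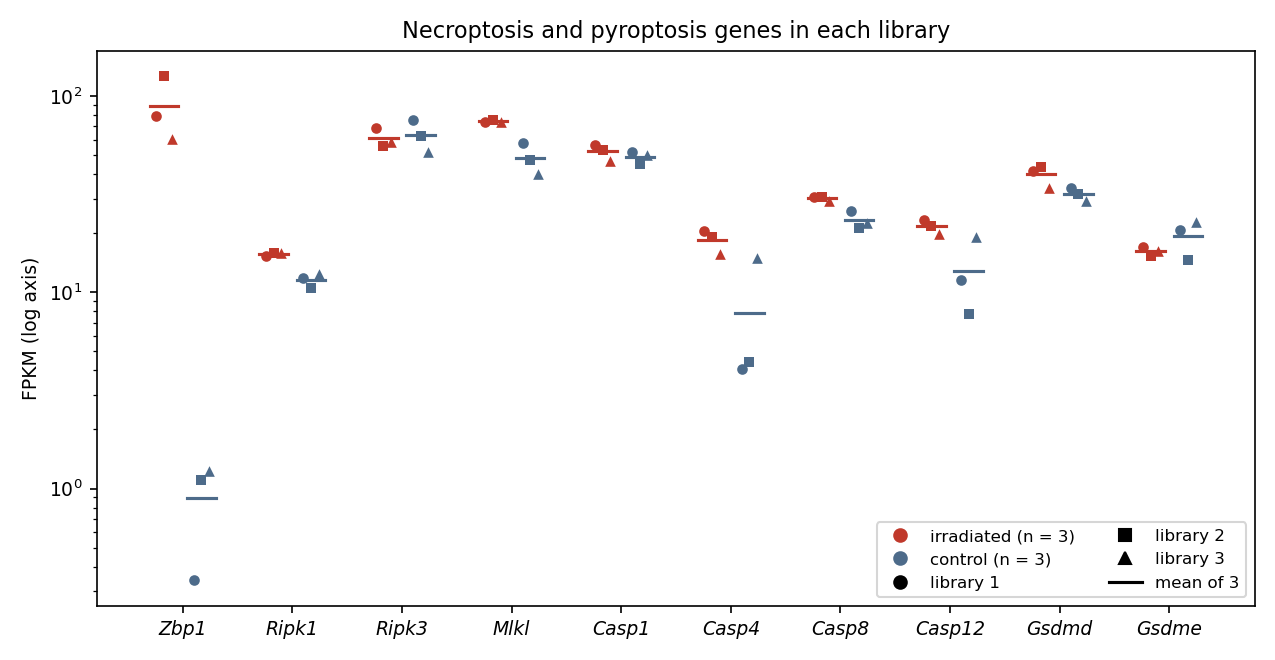
FPKM of the 10 genes in each library on a log axis, with irradiated libraries (red, n = 3) left of controls (blue, n = 3), one marker shape per library number and a bar at the mean of 3. The irradiated libraries lie between 60.3 and 127 FPKM for Zbp1, where controls lie between 0.34 and 1.23 FPKM, while the groups overlap for Ripk3, Casp1, Gsdmd and Gsdme.

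The order of levels differed between the groups, and Zbp1 changed place the most. In irradiated cells Zbp1 stood first of the 10 by mean, followed by Mlkl, Ripk3, Casp1, Gsdmd, Casp8, Casp12, Casp4, Gsdme and Ripk1. Neighbours in that order whose libraries overlapped were Zbp1 and Mlkl, Ripk3 and Casp1, and the run from Casp12 to Ripk1. In control cells the order was Ripk3, Casp1, Mlkl, Gsdmd, Casp8, Gsdme, Casp12, Ripk1, Casp4 and Zbp1. There, the libraries of Casp1 and Mlkl overlapped, as did those of each neighbouring pair from Casp8 to Casp4, and Zbp1 lay below all others.

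Zbp1, which binds Z-form RNA and DNA and recruits RIPK3, showed the largest change of the 10. It measured 79.2, 127 and 60.3 FPKM in irradiated libraries 1 to 3, against 0.34, 1.11 and 1.23 FPKM in controls 1 to 3. The groups were far apart, and irradiated library 2 was the highest. The means were 88.7 ± 34.1 FPKM in irradiated cells and 0.893 ± 0.483 FPKM in controls (SD, n = 3 each), a ratio of 99.3. On the log2(FPKM + 1) scale the fold change was 5.53 (SE 0.32, 95% confidence interval 4.78 to 6.29, limma adjusted p = 0.000526), rank 4 of 11103 genes by fold change. Control 1 lay below 1 FPKM, so Zbp1 passed the filter only through the irradiated libraries. The ratio, fold change and rank rest on control values near the floor, and a pseudocount of 0.1 gave 6.57. The gene (NCBI gene 58203) lies on chromosome 2, 173206612 to 173218959 (RefSeq, GRCm38.p6). The call of Zbp1 held under all 15 alternative settings, with log2 fold changes of 5.25 to 6.57. Against controls 1, 2 and 3 taken singly, the irradiated mean was higher by 6.0, 5.34 and 5.26.

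The kinases downstream of the sensor did not pass the test. Ripk3, whose kinase activates MLKL (NCBI gene 56532, chromosome 14, 55784995 to 55788857), measured 68.8, 55.4 and 58.2 FPKM in irradiated libraries 1 to 3, against 75.7, 62.4 and 52.0 FPKM in controls 1 to 3. The groups overlapped, with control 1 highest and control 3 lowest. Its log2 fold change was -0.05 (SE 0.17, 95% confidence interval -0.46 to 0.37, limma adjusted p = 0.848), and its sign changed with 4 settings. With array weights Ripk3 was called lower (-0.26, limma adjusted p = 0.0393), but that setting called 74.2% of all tested genes, and 26.3% lower. That fit rests mainly on control 1, where Ripk3 was highest, so nothing is read from the call. Ripk1, a kinase and scaffold of the TNF receptor complex (NCBI gene 19766, chromosome 13, 34002225 to 34035170), measured 15.4, 15.9 and 15.9 FPKM in irradiated libraries, against 11.8, 10.5 and 12.4 FPKM in controls. Every irradiated library lay above every control for Ripk1, by a small margin. Its log2 fold change of 0.41 (SE 0.12, 95% confidence interval 0.12 to 0.71) missed the threshold (limma adjusted p = 0.0661) and was -0.04 after correction of each library for transcript length and GC content. The Ripk1 transcript used in that correction is long, at 6472 bases, where the median of tested genes is 3380.

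Mlkl, the executioner of necroptosis (NCBI gene 74568, chromosome 8, 111311255 to 111338479), rose in irradiated cells. It measured 74.2, 75.5 and 73.9 FPKM in irradiated libraries 1 to 3, against 57.4, 47.0 and 40.2 FPKM in controls 1 to 3. The irradiated libraries were nearly alike and all above the controls, among which control 3 was lowest. The means were 74.5 ± 0.864 FPKM in irradiated cells and 48.2 ± 8.65 FPKM in controls (SD, n = 3 each), with a log2 fold change of 0.63 (SE 0.15, 95% confidence interval 0.27 to 1.00, limma adjusted p = 0.0461). That call lay close to the threshold. It was kept in 5 of 15 alternative settings and lost in 10, including trimmed-mean scaling (0.46, limma adjusted p = 0.119), a pseudocount of 0.1 (0.64, 0.0506), and omission of control 1 (0.76, 0.0781), control 2 (0.62, 0.0911) or irradiated library 1, 2 or 3 (0.64, 0.62 and 0.64, with 0.206, 0.209 and 0.177). Among the settings that kept it were array weights and omission of control 3, which called 74.2% and 69.1% of all tested genes.

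**Figure D2:**
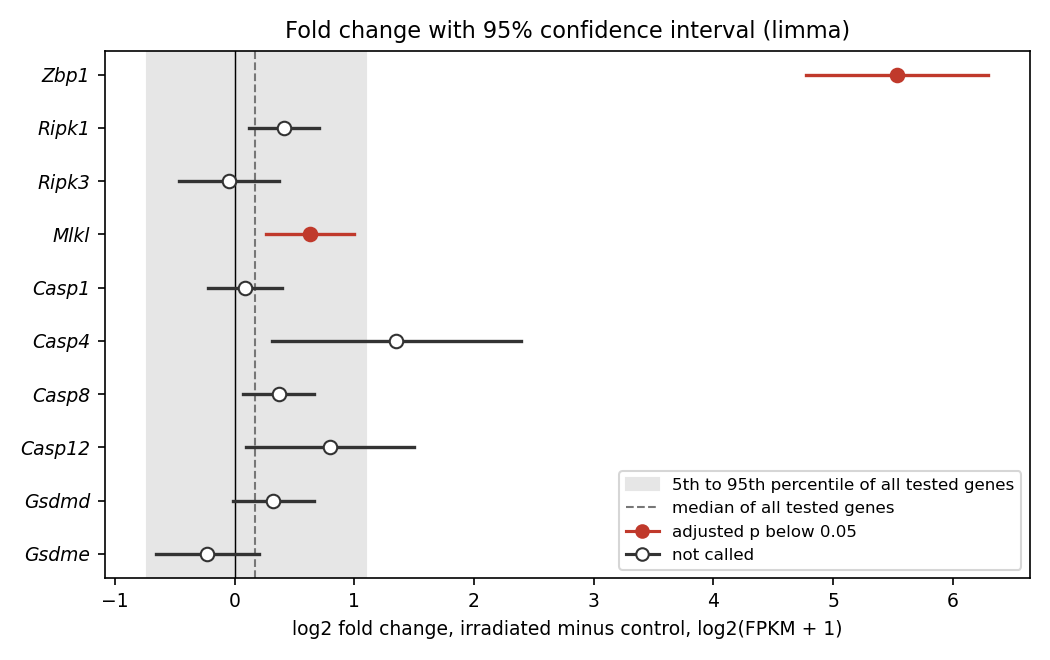
Log2 fold change of each gene (irradiated minus control, in log2(FPKM + 1) units) with its 95% confidence interval from limma; filled red points passed an adjusted p of 0.05, the dashed line is the median of all tested genes (0.17) and the grey band spans their 5th to 95th percentile (-0.73 to 1.10). Zbp1 (5.53) and Mlkl (0.63) are the filled points, and Zbp1 and Casp4 (1.35) lie beyond the band.

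Caspase-8 cleaves RIPK1 and RIPK3 and so restrains necroptosis, besides starting apoptosis. Casp8 (NCBI gene 12370, chromosome 1, 58795233 to 58847503) measured 30.7, 30.7 and 29.2 FPKM in irradiated libraries 1 to 3, against 25.8, 21.4 and 22.5 FPKM in controls 1 to 3. All irradiated libraries lay above all controls. The log2 fold change of 0.37 (SE 0.12, 95% confidence interval 0.07 to 0.66) did not pass (limma adjusted p = 0.0847).

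The inflammatory caspases Casp1, Casp4 and Casp12 lie next to one another on chromosome 9, with no other annotated gene between them, and did not share one pattern. Casp1, the protease of inflammasomes (NCBI gene 12362, 5298517 to 5307281), measured 56.6, 53.3 and 46.8 FPKM in irradiated libraries 1 to 3, against 51.7, 45.3 and 50.1 FPKM in controls 1 to 3. Irradiated libraries 1 and 2 lay above all controls, and irradiated library 3 lay within the control range. The log2 fold change of Casp1 was 0.09 (SE 0.13, 95% confidence interval -0.22 to 0.40, limma adjusted p = 0.631). Casp4, which in the mouse encodes caspase-11, a protease activated by bacterial lipopolysaccharide in the cytosol (NCBI gene 12363, 5308849 to 5336791), measured 20.6, 19.1 and 15.7 FPKM in irradiated libraries, against 4.07, 4.42 and 14.96 FPKM in controls. Control 3 came within 1 FPKM of irradiated library 3, while controls 1 and 2 were far lower. The log2 fold change was 1.35 (SE 0.44, 95% confidence interval 0.31 to 2.39) and did not pass (limma adjusted p = 0.0785). Casp12, a member of the same caspase group that is associated with the endoplasmic reticulum (NCBI gene 12364, 5345442 to 5373034), measured 23.3, 21.9 and 19.8 FPKM in irradiated libraries, against 11.6, 7.75 and 19.1 FPKM in controls. Its pattern over the libraries was like that of Casp4, with control 3 just below the irradiated range. The log2 fold change of 0.80 (SE 0.29, 95% confidence interval 0.10 to 1.5) did not pass (limma adjusted p = 0.102).

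For Casp4 and Casp12 the difference depended on which control was used. Set against controls 1, 2 and 3 singly, the irradiated mean of Casp4 was higher by 1.93, 1.84 and 0.28 on the log2(FPKM + 1) scale, and that of Casp12 by 0.85, 1.37 and 0.17. Without control 3, limma called both higher (Casp4 1.88, adjusted p = 2.97e-05; Casp12 1.11, adjusted p = 0.000459), together with Zbp1, Mlkl, Ripk1 and Casp8. That setting called 69.1% of all tested genes, so 6 called members of 10 lie near its background. For Mlkl the difference was instead largest against control 3, at 0.37, 0.65 and 0.87 against controls 1, 2 and 3.

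**Figure D3:**
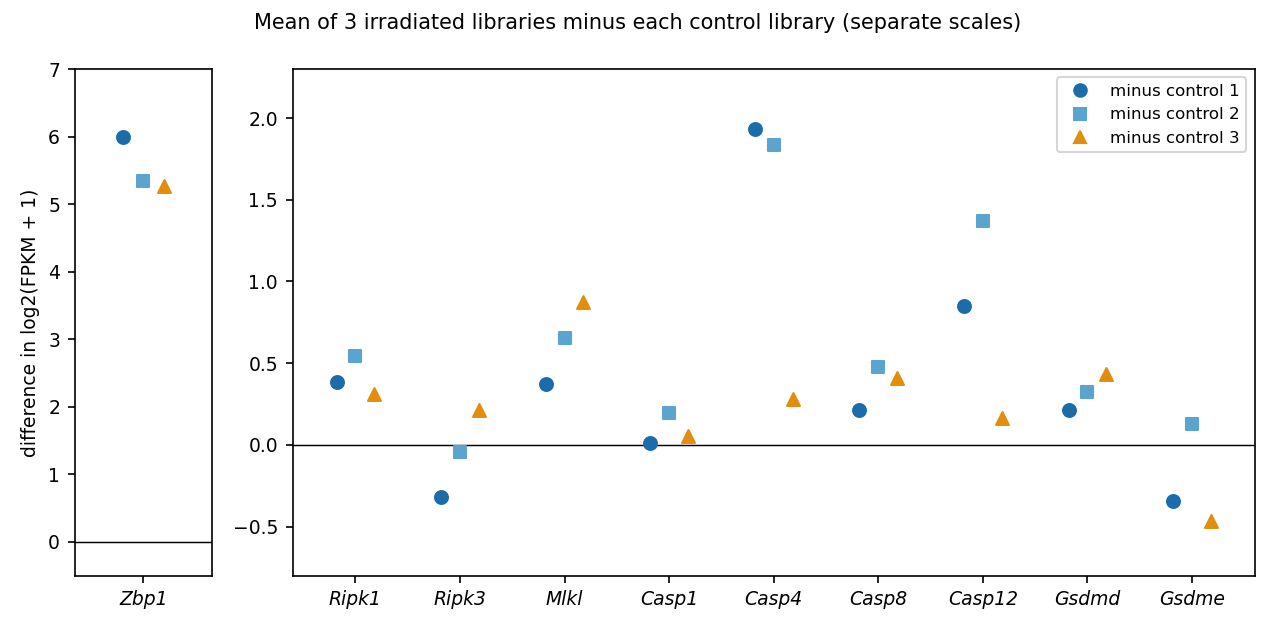
Mean of the 3 irradiated libraries minus each control library on the log2(FPKM + 1) scale, with Zbp1 in a panel of its own scale; circles, squares and triangles stand for controls 1, 2 and 3. The differences for Casp4 (1.93, 1.84 and 0.28) and Casp12 (0.85, 1.37 and 0.17) shrink against control 3, while those for Zbp1 lie between 5.26 and 6.0.

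Promoter sequences of the members were searched for 2 interferon-related motifs, since the sensor Zbp1 is an interferon-stimulated gene. RefSeq windows (GRCm38.p6, 250 bases before to 50 after a start site) were held for 8 of the 10 genes (all but Zbp1 and Gsdmd), in 10 windows. The motifs were the core of the interferon-stimulated response element (ISRE), which is GAAA, NN for any pair of bases and GAAA again, on either strand, and the gamma-activated site (GAS), TTCNNNGAA, which reads alike on both strands. An ISRE match was found in 1 of the 10 windows, that of a start site of Ripk1, and GAS matches in 2, the same Ripk1 window and that of Casp12. Of 32851 windows of this length in RefSeq, 3.44% held the ISRE, 8.3% the GAS and 0.454% both. The windows shown are those of Ripk1 and Casp12, which hold the matches, of Casp4, whose values followed those of Casp12, and of Mlkl, which was called. They are written 5′ to 3′ along the gene in lower case, with matches in capitals. They lie at chr13:34002624-34002923 (plus strand) for Ripk1, chr9:5345226-5345525 (plus strand) for Casp12, chr9:5308599-5308898 (plus strand) for Casp4 and chr8:111338156-111338455 (minus strand) for Mlkl.
Ripk1: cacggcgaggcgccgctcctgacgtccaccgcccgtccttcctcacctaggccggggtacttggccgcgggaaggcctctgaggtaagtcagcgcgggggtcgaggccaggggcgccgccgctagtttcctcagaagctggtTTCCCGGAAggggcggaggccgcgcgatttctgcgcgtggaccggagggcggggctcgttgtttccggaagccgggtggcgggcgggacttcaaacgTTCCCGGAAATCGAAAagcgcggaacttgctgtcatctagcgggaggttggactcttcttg
Casp12: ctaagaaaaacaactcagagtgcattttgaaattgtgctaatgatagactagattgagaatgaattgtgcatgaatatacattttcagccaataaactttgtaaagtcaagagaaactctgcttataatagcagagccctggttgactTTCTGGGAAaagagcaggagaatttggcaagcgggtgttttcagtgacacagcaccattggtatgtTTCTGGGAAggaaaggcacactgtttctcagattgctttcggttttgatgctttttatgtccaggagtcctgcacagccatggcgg
Casp4: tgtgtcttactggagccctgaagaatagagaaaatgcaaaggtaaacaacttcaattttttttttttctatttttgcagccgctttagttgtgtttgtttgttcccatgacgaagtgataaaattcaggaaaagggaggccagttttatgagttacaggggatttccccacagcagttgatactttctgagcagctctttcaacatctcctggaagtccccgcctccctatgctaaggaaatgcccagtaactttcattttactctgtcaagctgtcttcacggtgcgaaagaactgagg
Mlkl: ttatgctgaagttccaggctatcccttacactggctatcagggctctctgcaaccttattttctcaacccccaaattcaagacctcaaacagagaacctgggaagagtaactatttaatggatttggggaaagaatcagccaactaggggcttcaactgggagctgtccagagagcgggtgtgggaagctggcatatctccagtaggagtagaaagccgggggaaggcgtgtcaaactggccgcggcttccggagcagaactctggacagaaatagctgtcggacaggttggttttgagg
In the Ripk1 window the ISRE match GAAATCGAAA ran from position -5 to 5, counted from 1 at the start site with no position 0, and overlapped a GAS match at -11 to -3, and a further GAS match lay at -108 to -100. The Casp12 window held GAS matches at -102 to -94 and -36 to -28. Matches of letters describe these windows only, and binding was not measured.

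The gasdermins, which form the pores of pyroptosis, did not pass the test. Gsdmd, the target of the inflammatory caspases (NCBI gene 69146, chromosome 15, 75862144 to 75867408), measured 41.8, 43.8 and 34.0 FPKM in irradiated libraries 1 to 3, against 34.1, 31.5 and 29.1 FPKM in controls 1 to 3. Irradiated library 3 was just below control 1, and the other 2 irradiated libraries lay above all controls. The log2 fold change was 0.32 (SE 0.14, 95% confidence interval -0.02 to 0.66, limma adjusted p = 0.143). Gsdme, which caspases of apoptosis cleave (NCBI gene 54722, chromosome 6, 50207401 to 50263857), measured 16.9, 15.4 and 16.2 FPKM in irradiated libraries, against 20.8, 14.7 and 22.7 FPKM in controls. The groups overlapped through control 2, which was the lowest of the 6. The log2 fold change of -0.23 (SE 0.18, 95% confidence interval -0.66 to 0.20, limma adjusted p = 0.364) did not pass, but Gsdme was called lower after the correction for transcript length and GC content (-0.66, limma adjusted p = 0.0202). Its transcript is long and poor in GC, at 4628 bases and 38.7%, against medians of 3380 bases and 49.6% over tested genes.

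Ratios between members within a library do not depend on the scale of that library. Effects of transcript length or GC content that differ between libraries do not cancel in a ratio, and the ratios were not corrected for them. Of 7 ratios, chosen after the values were seen, 4 did not overlap between the groups. Single genes already separated this way for 31.8% (above) and 13.7% (below) of all tested genes, so nothing is read from that count. The ratio of Mlkl to its kinase Ripk3 was 1.08, 1.36 and 1.27 in irradiated libraries 1 to 3, against 0.758, 0.752 and 0.773 in controls 1 to 3. The controls agreed closely in this ratio, including control 3, and all irradiated libraries lay above them. The ratio of Casp4 to Casp1 was 0.364, 0.359 and 0.335 in irradiated libraries, against 0.0787, 0.0977 and 0.298 in controls, and that of Casp12 to Casp1 was 0.411 to 0.423 in irradiated libraries, against 0.171 to 0.382 in controls. In both, control 3 lay closest to the irradiated libraries. Casp12 to Casp4 was 1.13 to 1.26 in irradiated libraries, against 1.28 to 2.84 in controls. For each of these 4 ratios the two-sided exact permutation p was 0.1, the smallest that 3 against 3 libraries can give (0.175 adjusted over 7 ratios). The ratios Ripk3 to Ripk1, Casp8 to Ripk1 and Gsdmd to Gsdme overlapped between the groups (exact permutation p = 0.2, 0.5 and 0.2).

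**Figure D4:**
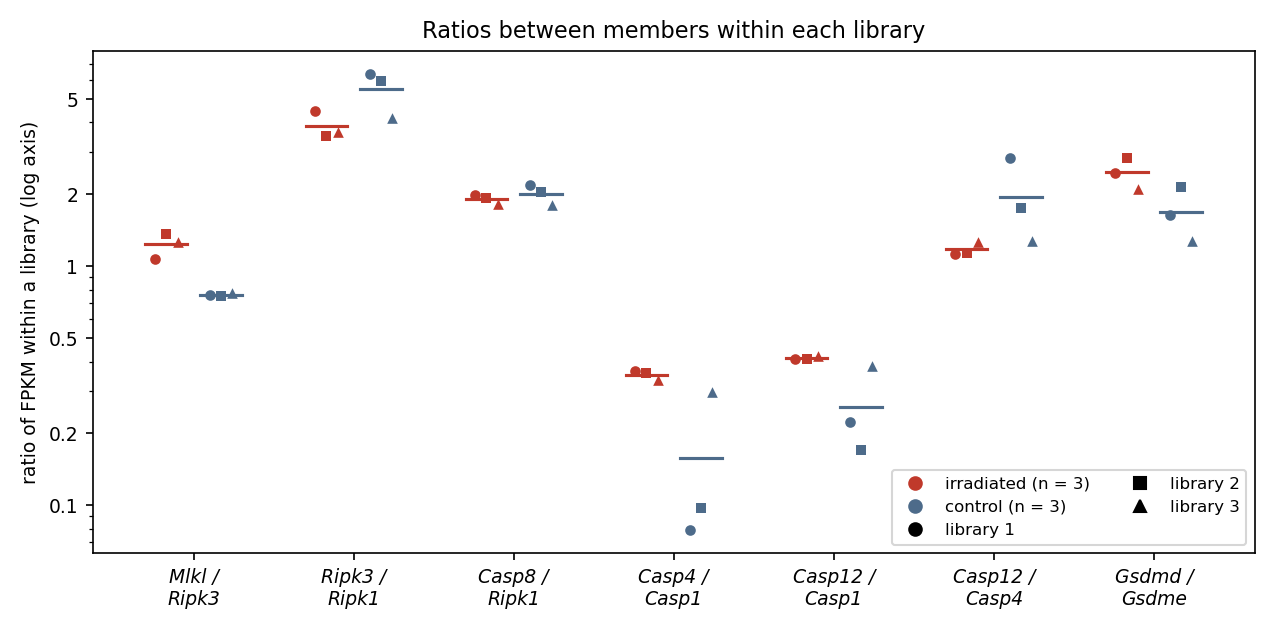
Ratio of FPKM between pairs of members within each library on a log axis, with irradiated libraries (red, n = 3) left of controls (blue, n = 3), one marker shape per library number and a bar at the mean of 3. Mlkl to Ripk3 lies between 1.08 and 1.36 in irradiated libraries and between 0.752 and 0.773 in controls.

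Among other genes of the necroptosis pathway, Tlr3, Adar, Rnf31 and Ticam1 rose in irradiated cells. Of 34 listed genes, all tested, 4 rose, 0 fell and 30 did not pass limma, with a median log2 fold change of 0.32. The risen share of 11.8% compares with 9.24% of all genes, and at an unadjusted p below 0.05 the counts were 11 higher and 2 lower of 34, against 27.2% and 11.1% of all genes. Adar, which edits double-stranded RNA and restrains ZBP1, measured 32.4, 36.7 and 26.6 FPKM in irradiated libraries 1 to 3, against 8.56, 9.15 and 14.7 FPKM in controls 1 to 3 (log2 fold change 1.5, SE 0.23, limma adjusted p = 0.0139). Tlr3, an endosomal receptor of double-stranded RNA, measured 6.93, 7.66 and 5.04 FPKM in irradiated libraries, against 1.39, 1.34 and 2.10 FPKM in controls (1.53, SE 0.20, limma adjusted p = 0.00739). Ticam1, which encodes TRIF, the adaptor of TLR3 that can bind RIPK3, rose by 0.96 (SE 0.20, limma adjusted p = 0.0327). Rnf31, the catalytic subunit of the linear ubiquitin ligase, rose by 1.23 (SE 0.24, limma adjusted p = 0.0278). For all 4 genes every irradiated library lay above every control, an order found for 31.8% of all tested genes. These 4 were named because they were called higher in the same libraries, so that order adds no support. Adar lost its call when control 1 (limma adjusted p = 0.0805) or any irradiated library (0.0756 to 0.124) was left out, as did Ticam1 (0.139, and 0.148 to 0.196) and Rnf31 (0.132, and 0.108 to 0.186). The log2 fold changes moved little in these fits, at 1.37 to 1.63 for Adar, 0.85 to 1.03 for Ticam1 and 1.12 to 1.38 for Rnf31. Without control 3 all 4 genes stayed called, at 1.73 for Adar, 1.66 for Tlr3, 1.16 for Ticam1 and 1.46 for Rnf31 (limma adjusted p = 5.3e-05 to 0.000121). Ticam1 and Rnf31 also lost theirs without control 2 (0.0741 and 0.0645), and Tlr3 its own without control 1 (0.0599) or irradiated library 1 (0.0875) or 2 (0.0854). Tnfaip3, which encodes A20, a brake on TNF signalling, had the highest fold change of the list and is named after its values were seen. It measured 10.3, 10.8 and 7.93 FPKM in irradiated libraries, against 1.93, 1.13 and 6.67 FPKM in controls, and did not pass (1.55, SE 0.45, limma adjusted p = 0.0653). As for Casp4, control 3 lay close to the irradiated libraries. Fadd, the adaptor of caspase-8, and Cflar, its inhibitor c-FLIP, did not pass, at log2 fold changes of -0.19 (SE 0.14, limma adjusted p = 0.319) and -0.01 (SE 0.14, limma adjusted p = 0.971).

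Some listed inflammasome genes, among them Nlrp3 and Pycard, were near 0 in SCC7 cells, while others were not. Naip2 measured 9.96 to 11.3 FPKM in irradiated libraries and 3.51 to 14.9 FPKM in controls (limma adjusted p = 0.283). Nek7 measured 31.3 to 31.7 FPKM and 24.1 to 53.9 FPKM (limma adjusted p = 0.832). Of 39 listed pyroptosis genes, 35 were in the table and 18 passed the filter, and the other 17 stayed below 1 FPKM in every library, at most 0.86. Those 17 include gasdermin and cytokine genes besides inflammasome genes. Pycard, the adaptor ASC that links sensors to caspase-1, was listed at 0.03, 0.03 and 0 FPKM in irradiated libraries and at 0.03 FPKM in each control. Nlrp3, an inflammasome sensor, measured 0.34, 0.23 and 0.21 FPKM in irradiated libraries, against 0.02, 0.02 and 0.13 FPKM in controls, and was below the filter. Il1b was not analysed here, and the cytokine gene Il18 measured 6.08 to 6.54 FPKM in irradiated libraries, against 5.30 to 6.78 FPKM in controls (0.05, SE 0.14, limma adjusted p = 0.805). Aim2, a sensor of cytosolic DNA, measured 12.6, 9.88 and 10.9 FPKM in irradiated libraries, against 6.59, 6.33 and 10.1 FPKM in controls, and did not pass (0.50, SE 0.20, limma adjusted p = 0.116).

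Of the 18 pyroptosis genes tested, 3 rose, 0 fell and 15 did not pass limma, with 7 higher and 2 lower at an unadjusted p below 0.05, against 27.2% and 11.1% of all genes. The risen share was 16.7% and the median log2 fold change 0.21, against 9.24% and 0.17 for all genes. That share depended on the filter: at 5 FPKM, 1 of 14 genes rose (7.14%), against 5.69% of all genes. P2rx7, an ATP-gated channel upstream of NLRP3, measured 15.03, 15.3 and 14.7 FPKM in irradiated libraries 1 to 3, against 7.64, 6.78 and 9.76 FPKM in controls 1 to 3 (0.84, SE 0.15, limma adjusted p = 0.0246). All irradiated libraries lay above all controls. Naip5 and Naip6, which sense bacterial flagellin, rose by 1.03 (SE 0.23, limma adjusted p = 0.0372) and 0.88 (SE 0.22, limma adjusted p = 0.0477) with means of 2.80 and 1.77 FPKM in irradiated cells and 0.913 and 0.550 FPKM in controls. Naip5 and Naip6, which with P2rx7 make up the 3 calls, passed the filter only through the irradiated libraries. The risen share rests largely on them, so nothing is read from it. Reads of the Naip genes can be shared between near-identical copies, so these values are uncertain. P2rx7, Naip5 and Naip6 lost their calls without control 1 or any irradiated library (limma adjusted p = 0.12 to 0.208), and Naip5 and Naip6 also without control 2 (0.0807 and 0.0927). Over all 14 alternatives in which it was tested, Naip5 kept its call in 6 and Naip6 in 3. After quantile normalization Naip5 was at 0.56 (limma adjusted p = 0.0581) and Naip6 at 0.37 (0.116), and after the length and GC correction they were at 0.64 (0.0208) and 0.40 (0.0537). A pseudocount of 0.1 put them at 1.68 (0.0518) and 1.79 (0.0718), and Naip6 also missed the threshold after trimmed-mean scaling (0.0552) and without a filter (0.0622). P2rx7 kept its call after the length and GC correction, at 0.50 (0.0211). Txnip, which encodes a thioredoxin-binding protein linked to NLRP3, had the highest fold change of the list and is likewise named after its values were seen. It measured 44.0, 47.9 and 24.6 FPKM in irradiated libraries, against 1.90, 1.26 and 16.4 FPKM in controls, and was not called (2.98, SE 0.76, limma adjusted p at the threshold). Its controls 1 and 2 were far lower than control 3, as for Casp4. Ninj1, which ruptures the membrane late in lytic death, did not pass, at -0.38 (SE 0.14, limma adjusted p = 0.102).

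**Figure D5:**
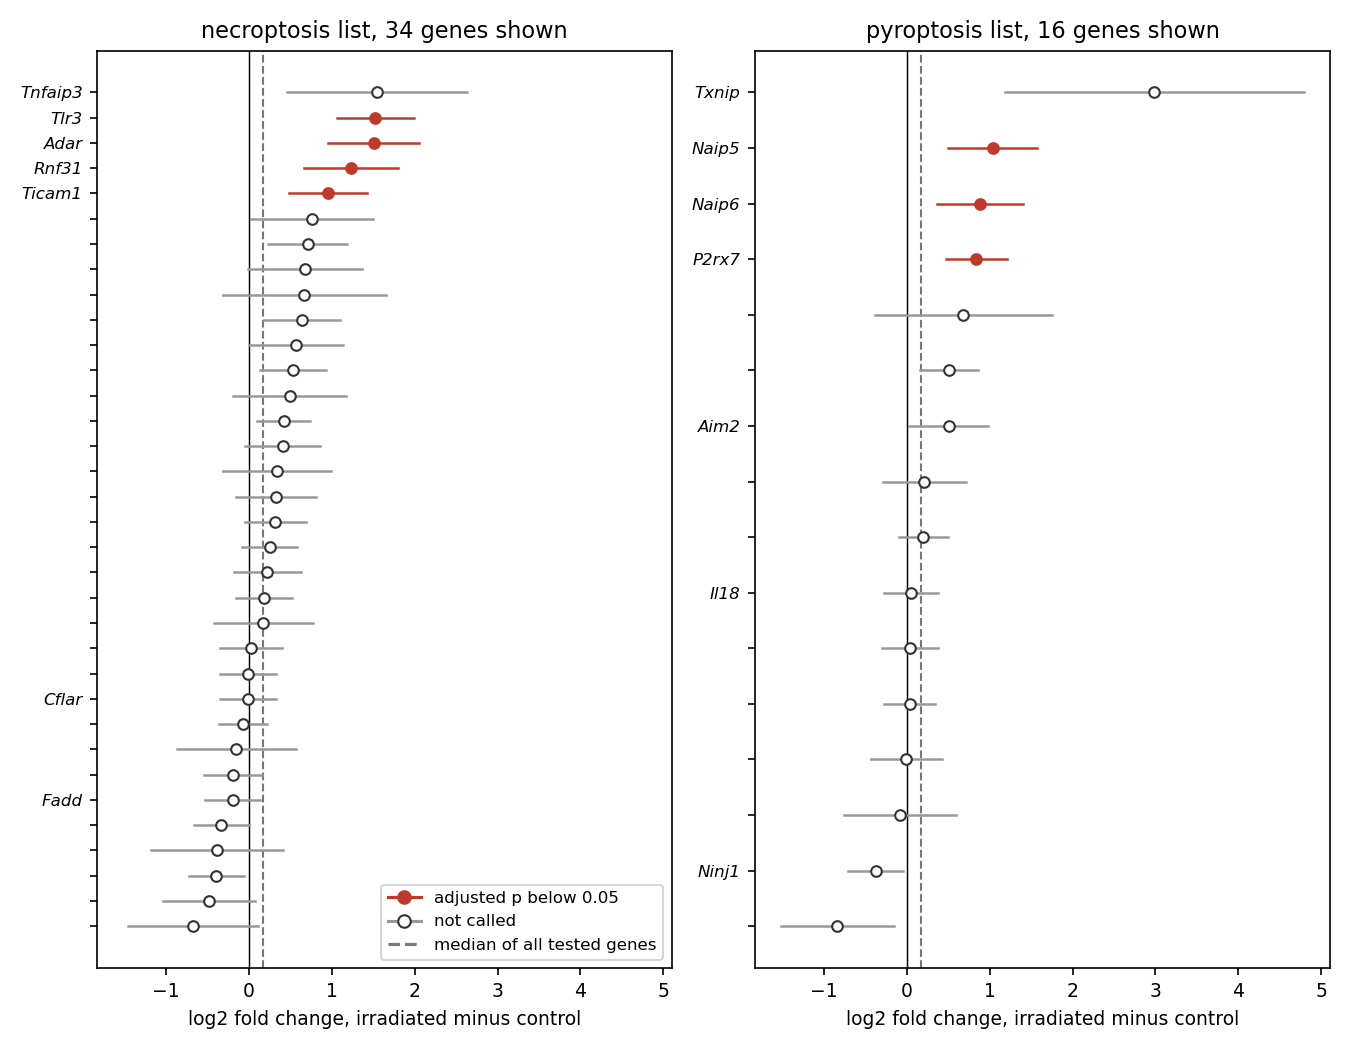
Log2 fold change (irradiated minus control, in log2(FPKM + 1) units) with 95% confidence intervals from limma for 34 necroptosis and 16 pyroptosis pathway genes, with the genes described in the text labelled and 2 tested pyroptosis genes not reported here; filled red points passed an adjusted p of 0.05 and the dashed line is the median of all tested genes (0.17). The filled points are Tlr3, Adar, Rnf31 and Ticam1 on the left and Naip5, Naip6 and P2rx7 on the right, all above 0.

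The genes whose pattern over the 6 libraries was most like that of a member were taken by Pearson r of log2(FPKM + 1), among 8483 other genes with a mean of at least 5 FPKM. For Zbp1 they were Hgs (r = 0.9993), Usp18 (0.9984), Igtp (0.9983), Oas3 (0.9978) and Ifit3 (0.9976). Apart from Hgs, whose log2 fold change was 0.59, these are interferon-stimulated genes, with log2 fold changes of 4.39 to 5.73. Control means were 0.173 FPKM for Usp18, 0.327 for Oas3, 0.927 for Ifit3 and 1.06 for Igtp. Usp18, Oas3 and Ifit3 passed the filter only through the irradiated libraries. All were picked for likeness to Zbp1 in these same libraries, so the direction of their changes adds no support. For Mlkl they were Arhgef3, Nupl2, Mis12 and Angptl4 (r = 0.9901 to 0.9947), and for Gsdmd they were Ltbp4, Ttc12, Poli, Map11 and Inpp5f (r = 0.9567 to 0.9784). The 6 libraries fall into 2 groups and share these values' group difference, so each r is given as a description only.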

How the data were processed

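RNA was measured in 3 irradiated and 3 control samples. The authors deposited FPKM for 17030 genes, per the file headers. The submitters' processing notes name HISAT and GRCm38.p6, while no counter or annotation is named there (not given in the sources used here). All 6 value columns were used. FPKM holds no read numbers, so depth is unknown and no counting interval is given. Samples were grouped by the treatment label. A gene entered the test if 3 or more samples reached 1 FPKM. Values of log2(FPKM + 1) were compared between the 2 groups by limma 3.58.1 under R 4.3.3 (eBayes with trend and robust options, Benjamini-Hochberg adjustment over all genes tested). The same variance is assumed in both groups, although controls varied more, so p-values are approximate.

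The members, both pathway lists and the tests were chosen with earlier results of these data known. All members were named, with every called gene of the lists, 11 further genes whatever their values (some genes under this rule are not reported here), and the 5 genes most like each of Zbp1, Mlkl and Gsdmd, leaving out predicted or clone names. The pairing of sample numbers was checked by the correlation of their deviations from the group means. Alternatives were quantile normalization, trimmed-mean scaling, a pseudocount of 0.1, filters at 0 and 5 FPKM, array weights, plain eBayes, omission of each library, and sample number as a blocking factor. A correction for transcript length and GC content (GENCODE M21, same build, 16424 genes with a value, splines with 4 degrees of freedom) was added after seeing the data.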

Additional observations from a re-analysis of the deposited data

How the results depend on the processing

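Zbp1 was called higher under all 15 alternatives. The number of members called higher was 1 after trimmed-mean scaling, without a filter, with the filter at 5 FPKM, with a pseudocount of 0.1 and with the sample number as a block, 7 with array weights, and 1 to 6 when 1 library was left out. Members called lower numbered 2 with array weights (Ripk3 and Gsdme) and 1 after the length and GC correction (Gsdme). Among all genes, the calls were 645 higher and 601 lower after quantile normalization, 506 higher with the filter at 5 FPKM, 5320 higher and 2922 lower with array weights, 828 lower (807 higher) after the length and GC correction, and 46 to 5067 higher and 10 to 2571 lower when 1 library was left out. Array weights gave control 1 a weight of 3.34, control 2 one of 0.293 and control 3 one of 0.0761, so that fit rests mainly on control 1; the default estimator of these weights did not converge and was replaced by the gene-by-gene one. Among all tested genes, array weights called 47.9% higher and 26.3% lower. For the necroptosis list, 20 rose and 6 fell with array weights, and 0 to 19 rose and 0 to 7 fell when 1 library was left out. For the pyroptosis list, 1 rose with the filter at 5 FPKM and with a pseudocount of 0.1, 8 rose and 2 fell with array weights, 1 fell after the length and GC correction, and 0 to 9 rose and 0 to 2 fell when 1 library was left out. The highest of these omission counts, for the members and both lists, came without control 3. That fit called 45.8% of all tested genes higher and 23.3% lower, so nothing is read from them. No pairing by sample number was seen: the correlations of same-numbered deviations were -0.11, 0.02 and -0.16, and 0 of 6 samples correlated best with their own number. With 3 libraries per group, this check cannot exclude a shared culture or day. With the replicate block, 260 genes were higher and 40 lower, with 1 member, 2 necroptosis and 0 pyroptosis genes higher. The sign changed for Ripk3 after quantile normalization (0.056) and the length and GC correction (0.020), without control 1 (0.086) and without irradiated library 2 (0.014), with -0.18 to 0.086 over the omissions of 1 library, for Ripk1 after the length and GC correction (-0.044), and for Casp1 after trimmed-mean scaling (-0.086). It changed for Cflar with array weights (0.019), without control 2 (0.027) and without irradiated library 3 (0.089; -0.098 to 0.089 over the omissions), and for Il18 after quantile normalization (-0.32) and trimmed-mean scaling (-0.10), with array weights (-0.0035) and without control 3 (-0.038; -0.038 to 0.11 over the omissions). None of these genes was called in the full comparison, and the cause was not tested. The unknown depth limits what can be said of genes listed near 0.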
